A study of Mus musculus with 10 samples.

Results

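The unfolded protein response is the program by which a cell matches the folding capacity of its endoplasmic reticulum (ER) to the load of new protein. In an unstressed cell the chaperone BiP holds 3 membrane sensors silent. When unfolded protein accumulates, IRE1 (gene Ern1) splices the mRNA of the transcription factor Xbp1, PERK (Eif2ak3) phosphorylates a translation initiation factor and thereby slows protein synthesis while the factor Atf4 is made, and ATF6 is cut in the Golgi to release a transcription factor. β-cells fold very large amounts of proinsulin, which needs its disulfide bonds, and depend on this program.

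The 40 genes described here were given by name as the unfolded protein response and ER folding genes, by a rule that uses no measured value. All 40 were found by symbol among the 35214 genes of the gene table, and they hold 505 of the 167895 events of the splicing table. They comprise 3 sensors, 4 transcription factors, 5 stress response targets and feedback genes, 9 genes of BiP, its relatives and cofactors, 3 lectin chaperones and their oxidoreductase, 6 genes of disulfide formation and 10 genes of ER-associated degradation (ERAD), the route by which misfolded proteins leave the ER for the proteasome.

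RNAseq was performed on islets of 5 male NZO mice (strain NZO/HiBomDife), which are obese and prone to diabetes, and of 5 male B6-ob/ob mice (C57BL/6J.V-Lepob/ob), which lack leptin, are obese and resist diabetes. Both strains ate a high-fat diet free of carbohydrate up to 18 weeks of age and then a diet with carbohydrate, for 2 days by the study's methods. The strains therefore differ in their whole genomes and in the Lep allele together, and no group without the diet switch was analysed here. The sample labels name the source as pancreas, whereas the methods name isolated islets. In the pooled libraries the markers of β-cells took 28.5% of all normalized counts (Ins2 alone 18.3%), those of α-cells 0.661% and those of acinar cells 0.00319%, with the acinar factor Ptf1a at a mean normalized count of 0.087.

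The data used are 1 mean normalized count per gene over all 10 libraries and 1 PSI per event and strain (the share of transcripts that include a stretch, between 0 and 1), for which the 5 libraries of the strain had been pooled. No value per mouse was used, so no SD can be given, no difference between the strains can be set against the spread between mice, and no test was made. Every difference below is a description of 2 pooled values. The number of reads behind each PSI is unknown.

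Promoter elements known from the unfolded protein response stood in front of many folding genes of the list. Promoters of RefSeq (GRCm38.p6, 250 bases before to 50 after the start of a gene) matched 35 of the 40 genes. The ER stress response element (ERSE) is read by ATF6 and XBP1 together with the CCAAT-binding factor NF-Y. Its letters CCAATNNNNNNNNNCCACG, searched on both strands, stood in 10 of these 35 genes (28.6%) and in 39 of all 32851 promoters of the same length (0.119%). The first share counts genes and the second promoters. The list was named for the response from which the element is known, so this excess was set largely by the choice of genes and tests nothing. The same holds for the elements below. The sites of these 10 genes are printed to show which chaperone and degradation genes hold the element and with which bases around its fixed letters. The likeness of the fixed letters is set by the search. They read along the gene, 5′ to 3′, with 5 bases on each side. Capitals mark the fixed letters, and CGTGG before ATTGG is the element on the opposite strand.
Hspa5 (chr2:34772020-34772048, + strand): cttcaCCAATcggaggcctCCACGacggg
Hsp90b1, far site (chr10:86705633-86705661, - strand): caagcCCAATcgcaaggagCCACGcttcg
Hsp90b1, near site (chr10:86705528-86705556, - strand): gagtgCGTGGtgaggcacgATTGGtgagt
Calr (chr8:84847070-84847098, - strand): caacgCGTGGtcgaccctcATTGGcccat
Canx (chr11:50325795-50325823, - strand): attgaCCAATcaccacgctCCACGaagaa
Pdia6 (chr12:17266486-17266514, + strand): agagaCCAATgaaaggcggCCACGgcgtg
Ero1lb (chr13:12565677-12565705, + strand): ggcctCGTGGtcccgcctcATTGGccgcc
Dnajc3 (chr14:118937822-118937850, + strand): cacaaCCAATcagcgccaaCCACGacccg
Creld2 (chr15:88819515-88819543, + strand): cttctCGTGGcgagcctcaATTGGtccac
Derl3 (chr10:75893237-75893265, + strand): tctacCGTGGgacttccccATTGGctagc
Syvn1 (chr19:6046527-6046555, + strand): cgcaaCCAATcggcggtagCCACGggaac

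Each of these sites lay upstream of the RefSeq start, the farthest in Hsp90b1 from 212 to 194 bases before it and the nearest in Syvn1 from 44 to 26 bases before it. The start that most Syvn1 transcripts of these islets used lies further down, and the ERSE stands from 533 to 515 bases before that one. The genes with an ERSE had a median level of 12268 normalized counts per kb of exon (range 1364 to 26134), and the other 25 genes with a promoter had one of 1209 (range 17.2 to 27972). The 2 ranges overlap over most of their length.

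A shorter form of the element, ERSE-II (ATTGGNCCACG, both strands), stood in 12 of all promoters (0.0365%), and 2 of these belong to genes of the list. It lies before the start of Herpud1 and after the RefSeq start of Dnajb11. These are also genes in which the strains differed in the use of transcription starts, and the sites are printed for that comparison. Of the genes with an ERSE, Canx, Creld2, Dnajc3 and Hsp90b1 had no measured start event. In the others the main start was mostly used alike. Its PSI in NZO and B6-ob/ob was 0.991 and 0.991 in Calr, 0.992 and 0.990 in Derl3, and 0.9985 and 0.9985 in Pdia6. It was 0.985 and 0.986 in Syvn1, 0.898 and 0.895 in Hspa5, and 0.884 and 0.787 in Ero1lb. Whether an element bears on the use of starts was not tested.
Herpud1 (chr8:94386372-94386392, + strand): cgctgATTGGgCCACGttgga
Dnajb11 (chr16:22857847-22857867, + strand): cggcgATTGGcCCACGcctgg

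The C/EBP-ATF response element (CARE), through which ATF4 acts, was searched as TGATGNAA on both strands. It stood in 4 of the 35 genes (11.4%) and in 3.97% of all promoters, and the 4 genes are Atf3, Chac1, Trib3 and Herpud1. In all 4 the element stood on the opposite strand and reads TTNCATCA along the gene.
Atf3 (chr1:191183431-191183448, - strand): cgcacTTgCATCAccaag
Chac1 (chr2:119351044-119351061, + strand): tgccgTTgCATCActcct
Herpud1 (chr8:94386312-94386329, + strand): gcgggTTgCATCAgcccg
Trib3 (chr2:152344034-152344051, - strand): caggtTTaCATCAgccgg

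The core letters TGACGTGG of a further XBP1 element stood in 0.676% of all promoters and in 0 of the 35. No match says only that these letters are not in this window.

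The folding machinery was among the most abundant mRNAs of these islets. Over all 10 libraries the 40 genes took 2.48% of all normalized counts, and the 10 most abundant of them 1.83%. Their median level was 3033 normalized counts per kb, against 196 over the 11737 genes that had a known exon length and averaged 100 normalized counts or more. Of the 40 genes, 38 lay above that median, 26 in the top 10% and 11 in the top 1%. In these whole islets, a different number of cells of a type and a different amount of RNA per cell cannot be told apart. The mean normalized count was pooled over both strains, so levels are not compared between the strains here.

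**Figure D1:**
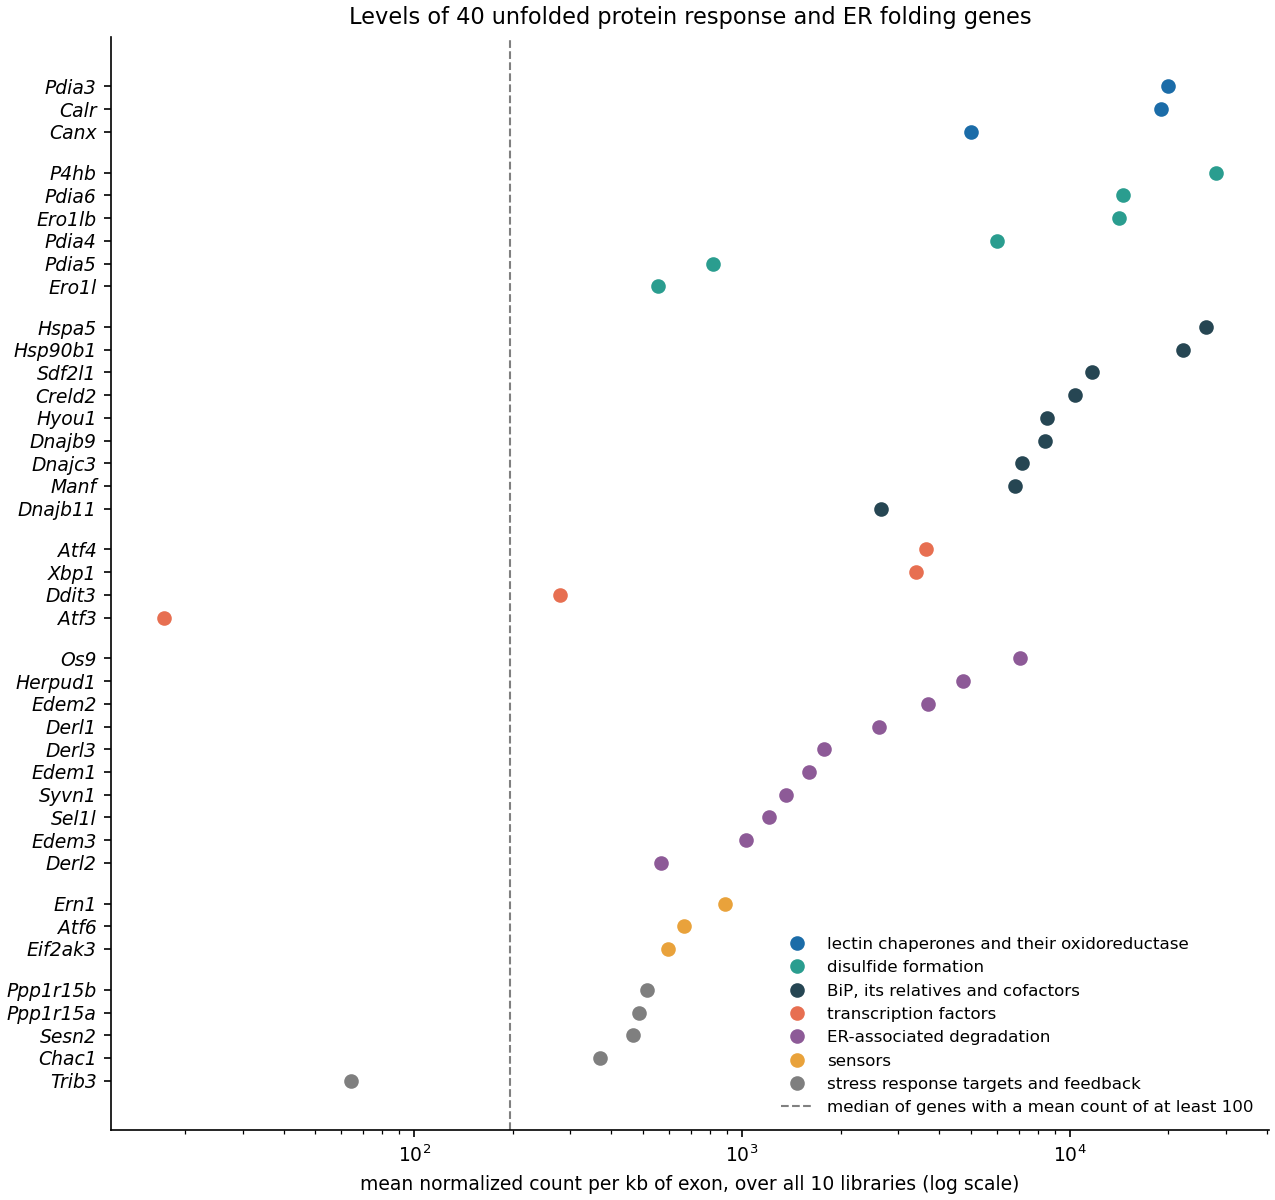
Level of each of the 40 genes as the mean normalized count per kb of exon over all 10 libraries (log axis), grouped by role, with a dashed line at the median of all genes that averaged 100 counts or more. Each point is 1 pooled mean without error. P4hb is the highest at 27972, and Trib3 and Atf3 are the 2 genes below the line of 196.

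The chaperones and oxidoreductases led the order. P4hb, the protein disulfide isomerase that forms and shuffles disulfide bonds, was highest with 27972 normalized counts per kb. Hspa5, which encodes BiP, followed with 26134, and Hsp90b1, the HSP90 of the ER, with 22222. Pdia3, the oxidoreductase that works with the lectin chaperones, had 19962 and Calr (calreticulin), a soluble lectin chaperone, 18930.1. Calnexin (Canx), its membrane-bound relative, had 5014. These levels have no spread, and whether neighbours in the order differ cannot be said.

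The β-cell oxidase Ero1lb, which passes electrons from protein disulfide isomerases to oxygen, had a level of 14179 per kb, whereas its widely expressed relative Ero1l had 553. Pdia6 reached 14543, Pdia4 6007 and Pdia5 814. Among the partners of BiP, the cofactor Sdf2l1 had 11726, the ER chaperone Creld2 10357, the nucleotide exchange factor Hyou1 8550, and the J-domain proteins Dnajb9, Dnajc3 and Dnajb11 8434, 7129 and 2665. Manf, a secreted protein that protects β-cells from ER stress, had 6797. All of these lay above the median of all genes.

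The 10 ERAD genes had a median of 1692 per kb and ranged from 566 for Derl2 (1042 per kb of its longest transcript, above the 1037 of Edem3), a membrane protein of the retrotranslocation channel, to 7048 for the lectin Os9. Herpud1, a stress-induced scaffold of the degradation complex, had 4718. The mannosidase-like genes Edem2, Edem1 and Edem3 had 3684, 1599 and 1029. The ubiquitin ligase Syvn1 (HRD1) had 1364 and its partner Sel1l 1209, and the derlins Derl1 and Derl3 had 2628 and 1784.

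The sensors were less abundant per kb than the chaperones. Ern1 had 889 per kb, Atf6 665 and Eif2ak3 595. Of the transcription factors, Atf4 had 3642 and Xbp1 3401, whereas Ddit3 (CHOP), which promotes cell death under lasting stress, had 278 and Atf3 17.2. The stress response targets had a median of 465. Ppp1r15b and Ppp1r15a, which direct the phosphatase that reverses the action of PERK, had 512 and 486, the stress gene Sesn2 465, the glutathione-degrading Chac1 370 and Trib3, a pseudokinase downstream of Atf4, 64.1. Trib3 rests on a mean normalized count of 136 and Atf3 on 37.1, so that Atf3 stays below the minimum of 100 used for the splicing events.

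Levels depend on the length they are divided by. Per kb of the longest transcript in place of all exons, 9 of the 40 were over 1.5 times as high. Pdia6 then had 25041, Ero1lb 22253, Manf 10660, Edem2 5571, Xbp1 5189, Derl3 2692, Pdia5 1247, Derl2 1042 and Ddit3 492.

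Most PSIs of these genes were close in the 2 strains. Of 499 events in the 39 genes that averaged 100 normalized counts or more, 25 in 11 genes (5.01%) differed by more than 0.1 in PSI between the pooled strains, 12 of them with the higher PSI in NZO and 13 with the lower. Over all genes, 7.99% of 153264 events passed the same limit. Among genes averaging 5000 normalized counts or more, the shares were 4.52% (18 of 398 events) and 4.61% of all, a share near the background. The median absolute difference was 0.000449 for the 499 events and 0.00787 for all events. In genes averaging 5000 normalized counts or more it was 0.00022 and 0.00111. Most of the events were exons included in nearly all transcripts. Of the 44 events with a mean PSI between 0.1 and 0.9, 23 passed the limit (52.3%), against 40.5% of all such events.

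**Figure D2:**
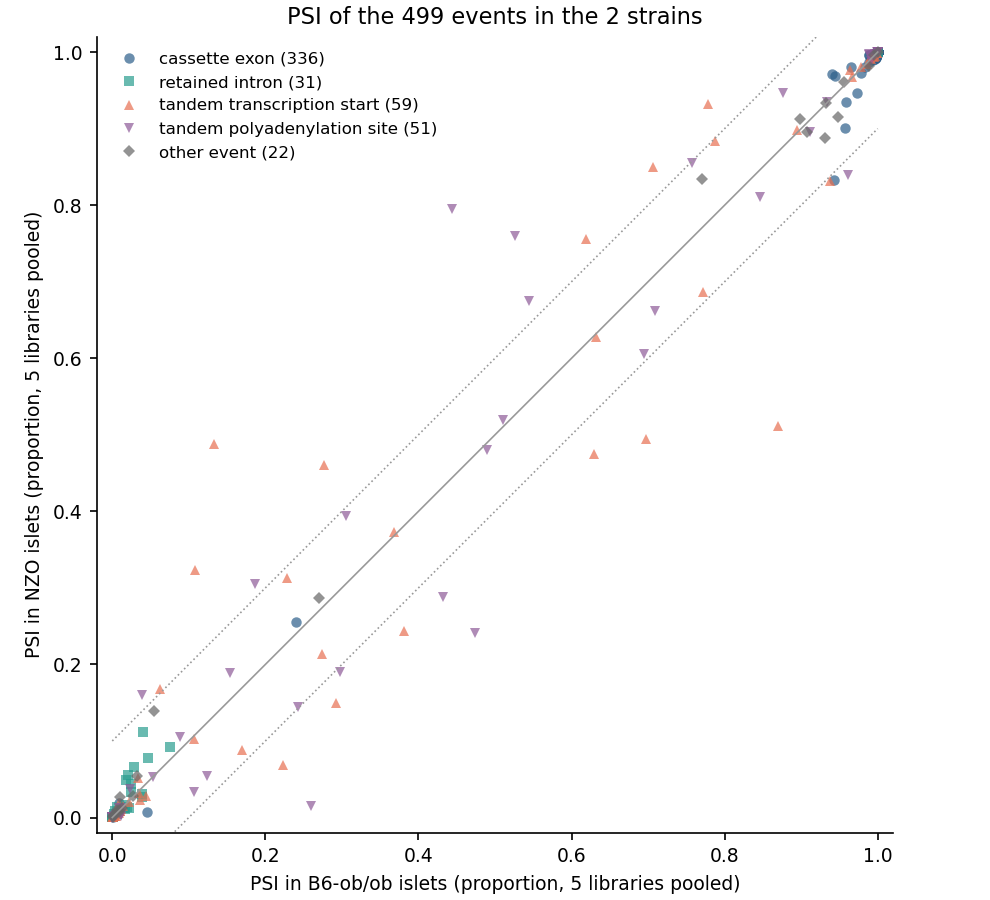
PSI of the 499 events in B6-ob/ob (horizontal axis) and NZO islets (vertical axis), both as a proportion with 5 libraries pooled, by event type. The solid line marks equal PSI and the dotted lines a difference of 0.1. The points outside the dotted lines are 14 starts, 10 polyadenylation sites and 1 cassette exon.

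The differences lay almost entirely at the ends of the transcripts, where most of those over all genes lay too. Over all genes, the 12240 events past the limit held 4121 starts and 5333 polyadenylation sites. Of 59 tandem transcription starts, 14 passed the limit (23.7%, against 22.5% over all genes), and of 51 tandem polyadenylation sites, 10 (19.6%, against 27.6%). Among genes averaging 5000 normalized counts or more the order of the latter turned round, with 10 of 43 polyadenylation sites (23.3%, against 19.4%) and 8 of 43 starts (18.6%, against 12.5%). Of 336 cassette exons, 1 passed (0.298%, against 1.3%), and of 31 retained introns, 0 (against 10.1%). In the same abundant genes, 0 of 274 cassette exons passed, against 0.557% of all, and 0 of 25 introns, against 3.56%. The 6 alternative 3′ splice sites, 6 alternative 5′ splice sites, 7 alternative first exons and 3 alternative last exons held none past the limit, against 13.4%, 14.3%, 7.25% and 8.66% over all genes. With so few events, 0 is near these shares.

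**Figure D3:**
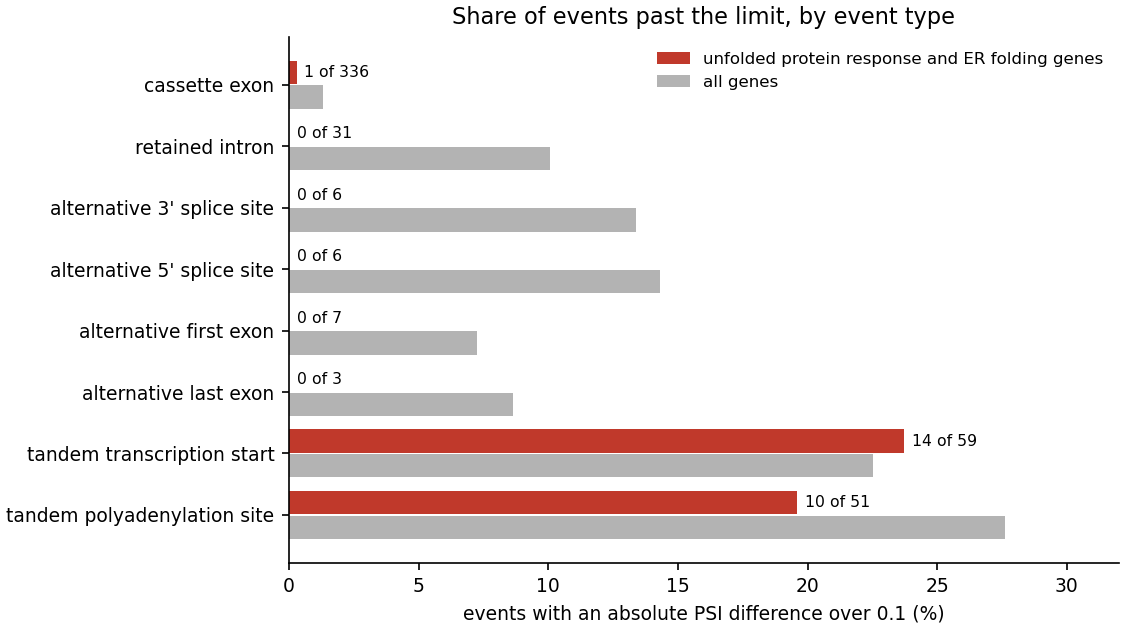
Share of events with an absolute PSI difference over 0.1 (horizontal axis, percent) by event type, in the unfolded protein response and ER folding genes and in all genes that averaged 100 normalized counts or more. The count of events past the limit is written beside each bar of the listed genes. Only starts, polyadenylation sites and 1 of 336 cassette exons are past it.

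Adjoining start stretches, or adjoining stretches before polyadenylation sites, of a gene were taken as a set. In 23 of 23 start sets and 22 of 22 polyadenylation sets of these genes the PSIs added up to within 0.05 of 1 in both strains, so that a PSI here reads as a share within its set. Over all genes that held for 71.2% of the start sets and 95.8% of the polyadenylation sets. Where a gene has several sets, as Calr and Hspa5 do at their ends, the PSI is not a share of all transcripts of the gene. Beside the events named by their size, neighbouring sites of a set, stretches too short for naming and events below the limit were picked for printing after their values were seen. A gain at one site is a loss at its neighbour, and the 14 start events are 7 sets and the 10 polyadenylation events 5 sets. Counted in this way, 30.4% of the start sets had a site past the limit, against 33% over all genes and 28.3% of those whose PSIs added up to 1 within 0.05, and 22.7% of the polyadenylation sets, against 36.8% and 35.7%. In 6 of the 7 start sets the mean start lay further upstream in NZO, with Ppp1r15b as the exception. Over all genes that was so in 52.7% of the sets past the limit. In 4 of the 5 polyadenylation sets the mean end lay further downstream in NZO, with Calr as the exception, against 1650 of 2681 sets over all genes.

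**Figure D4:**
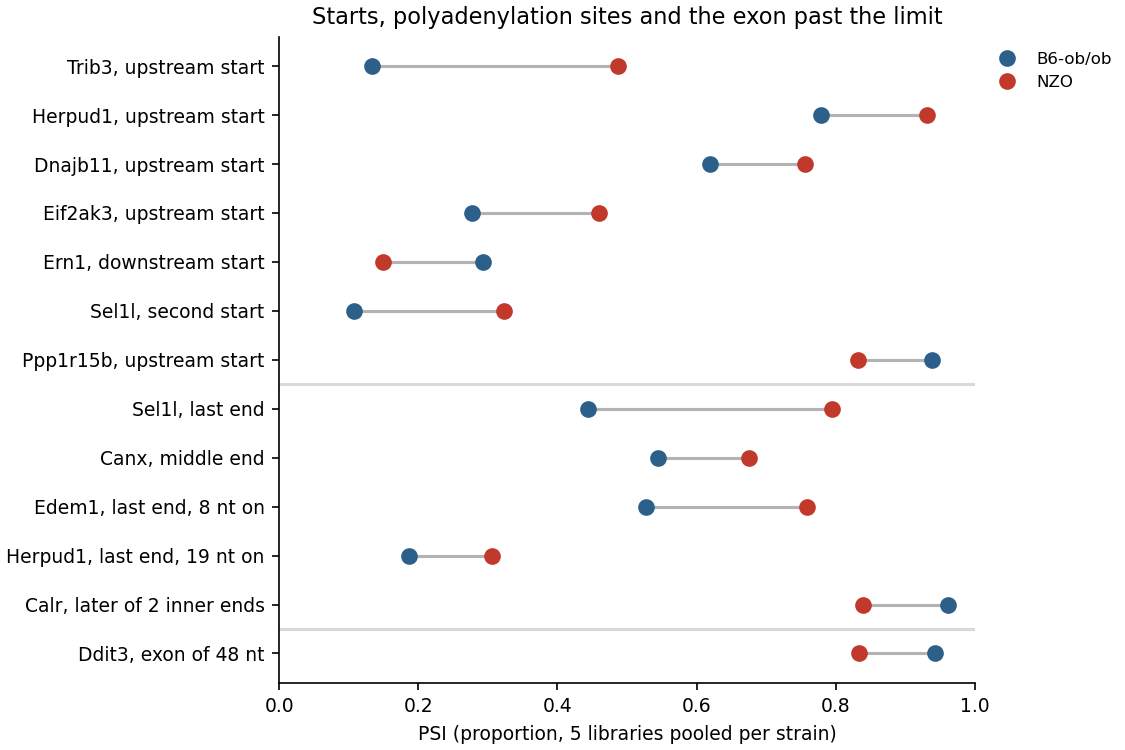
PSI (horizontal axis, a proportion) of 1 site from each of the 7 start sets, the 5 polyadenylation sets and the cassette exon past the limit, in B6-ob/ob and NZO islets, each point being 5 libraries pooled. The longest lines are those of the Trib3 upstream start (0.133 in B6-ob/ob and 0.487 in NZO) and the last Sel1l end (0.443 and 0.795).

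Among the sensors, the stretches at the starts of Ern1 and Eif2ak3 differed, whereas no start event of Atf6 was measured. Together 4 of their 57 events passed the limit (7.02%, against 7.99% over all genes). In Ern1 the 180 nt start (chr11:106487617-106487796, with the beginning of the coding sequence in it) stood at 0.149 in NZO against 0.293 in B6-ob/ob. The start only 7 nt upstream took 0.850 and 0.707. The mean start lay 1.34 nt further upstream in NZO. In Eif2ak3, the upstream start took 0.460 in NZO against 0.277 in B6-ob/ob, and the start 38 nt further down 0.495 and 0.698. These 2 stretches of Eif2ak3, of 38 and 3 nt, and the 7 nt stretch of Ern1 are shorter than the 50 nt set for naming. All 14 events of Atf6 are cassette exons, and they differed by 0.00533 or less.

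Further events of the sensors were below the limit and were chosen after their values were seen. An alternative last exon of Eif2ak3 of 328 nt (chr6:70864498-70864825), which ends the short transcript Eif2ak3-204, stood at 0.139 in NZO against 0.0542 in B6-ob/ob. A 34 nt coding exon of Ern1 (chr11:106437090-106437123), whose length is not a multiple of 3, had 0.901 and 0.957. The coding part of each is printed because these are the sensor sequences that are present in part of the transcripts.
Eif2ak3, last 30 coding bases of Eif2ak3-204 (chr6:70864498-70864527, + strand): ggcacccacaaaacttcctcaaaagaatgt
Ern1, exon of 34 nt (chr11:106437090-106437123, - strand): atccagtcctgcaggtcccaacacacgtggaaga

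Of the transcription factors, Ddit3 held the cassette exon past the limit, which was 1 of 19 events in 3 genes (5.26%, against 7.99% over all genes). The 48 nt exon (chr10:127293712-127293759) was included at 0.833 in NZO against 0.943 in B6-ob/ob. GENCODE M21 places it in the 5′ untranslated region of Ddit3-201 and in the coding sequence of Ddit3-204. Ddit3 has a mean normalized count of 477, low for the list. None of the 6 events of Atf4 differed by more than 0.0158, and none of the 9 of Xbp1 by more than 0.0358. The 26 nt intron that IRE1 removes from Xbp1 mRNA was not measured, since 0 of the 9 Xbp1 events have that length and no Xbp1 transcript of GENCODE M21 has such an intron. These data therefore do not show how much Xbp1 mRNA was spliced by IRE1. The 2 starts of Xbp1 were used alike, the upstream one at 0.628 in NZO against 0.632 in B6-ob/ob.

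Among the stress response targets, 4 of 22 events passed the limit (18.2%, against 7.99% over all genes). All 4 are starts, a type of which 22.5% passed over all genes, and 12 of the 22 are cassette exons, of which 1.3% passed. Whether 4 of 22 is high for this mix of types was not tested. Trib3 showed the largest difference of all 499 events. The upstream start, a stretch of 62 nt (chr2:152343971-152344032, minus strand), took 0.487 in NZO against 0.133 in B6-ob/ob. The downstream start with its 114 nt (chr2:152343857-152343970) took 0.512 and 0.869. The mean start was 22.0 nt further upstream in NZO. Both stretches are untranslated, and the CARE printed above ends 7 nt before the upstream start of this table. It lies from 14 to 21 bases after the RefSeq start. Trib3 is also the least abundant gene tested.

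Ppp1r15b went the other way. Its upstream start of 201 nt (chr1:133131143-133131343) took 0.831 in NZO against 0.938 in B6-ob/ob, and its downstream start of 567 nt, which holds coding sequence, 0.167 and 0.0622. With differences of -0.106 and 0.105, both just passed the limit. The other 3 genes of this group did not pass it. The largest difference in Ppp1r15a was 0.0115 and in Sesn2 0.00291, and the 36 nt coding exon that is the tested event of Chac1 had 0.981 and 0.965.

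Of the 108 events of BiP, its relatives and cofactors, 73 are cassette exons, a type of which 1.3% passed the limit over all genes. Among the 9 genes only Dnajb11 passed it, with 2 of the 108 events (1.85%, against 7.99% over all genes). Its upstream start of 21 nt (chr16:22857845-22857865) took 0.756 in NZO against 0.619 in B6-ob/ob, and its downstream start of 244 nt (chr16:22857866-22858109) 0.244 and 0.381. The ERSE-II of Dnajb11 lies inside the 21 nt between these starts, so that it is part of the transcript from the upstream start and stands from 14 to 4 bases before the downstream one. In Hspa5 the ERSE likewise lies within the 125 nt stretch of its upstream start, but there the upstream start was the lesser one in both strains (0.102 and 0.107). The largest difference among the 14 events of Hspa5 was 0.0159. The 37 events of Hyou1 stayed within 0.00117, the 17 of Hsp90b1 within 0.00394, the 7 of Manf within 0.00328, and those of Dnajb9, Creld2, Sdf2l1 and Dnajc3 within 0.00209.

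Both lectin chaperones passed the limit at polyadenylation sites. For Pdia3, their oxidoreductase, no polyadenylation site was measured, and its 10 events, all cassette exons, were the same in both strains to within 2e-05. Together 4 of the 42 events of these 3 genes passed (9.52%, against 7.99% over all genes). In NZO a larger share of Canx transcripts ended at the middle of its 3 sites and a smaller share at the proximal one. The middle site, after 1732 nt of 3′ untranslated region (chr11:50294467-50296198), took 0.675 in NZO against 0.544 in B6-ob/ob, and the site before it, at the end of 137 nt, 0.288 and 0.433. The mean end was 258 nt further downstream in NZO. In Calr the pair past the limit lies in transcripts annotated as retained introns (Calr-202 and Calr-203), and the PSI is a share within that pair, not of all Calr transcripts. The later of the 2 ends (313 nt, chr8:84845437-84845749) took 0.840 in NZO against 0.961 in B6-ob/ob. At the end of the coding transcript Calr-201, the last site had 0.946 and 0.877, below the limit.

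In disulfide formation, 0 of 81 events in 6 genes passed the limit. Over all genes 7.99% of events passed. Of the 81 events 63 are cassette exons, of which 1.3% passed over all genes, so that 0 of these 63 is near the background. The others include starts and polyadenylation sites, of which 22.5% and 27.6% passed over all genes. Whether 0 of 81 is low for this mix of types was not tested. The event nearest to the limit was the upstream start of Ero1lb with 0.884 in NZO against 0.787 in B6-ob/ob, a difference of 0.0963 over a stretch of 9 nt. P4hb used the last of its ends, 7 nt beyond the one before it, at 0.394 and 0.305. The upstream start of Pdia4 had 0.686 and 0.772. All 12 events of Pdia6 were within 9.38e-05, the 11 of Ero1l within 0.00573 and the 18 of Pdia5 within 0.0321. The penultimate, alternative last exon of Ero1lb had 0.287 and 0.271.

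In ERAD, 10 of 170 events passed the limit (5.88%, against 7.99% over all genes), in Sel1l, Edem1 and Herpud1. Sel1l, which holds the ubiquitin ligase Syvn1 in its complex, had the longest shift in the list. Its most distal polyadenylation site, at the end of a 578 nt stretch (chr12:91806043-91806620, minus strand), took 0.795 in NZO against 0.443 in B6-ob/ob. The proximal site, after 1411 nt (chr12:91808643-91810053), took 0.0151 and 0.260. The middle site, after 2022 nt, took 0.190 and 0.297, which just passed the limit at -0.107. The mean end of Sel1l lay 698 nt further downstream in NZO, all of it in 3′ untranslated sequence beyond the proximal site. Its starts also differed, but by few bases. A start on a single nucleotide took 0.323 in NZO against 0.108 in B6-ob/ob, and another 10 nt downstream 0.475 and 0.630.

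Edem1 had an end after 3823 nt (chr6:108855526-108859348) at 0.241 in NZO against 0.473 in B6-ob/ob, but the end that replaced it, at 0.759 and 0.527, lies only 8 nt further, and the mean end moved by 2.38 nt. Herpud1 differed at both of its ends. Its upstream start (57 nt, chr8:94386438-94386494) took 0.932 in NZO against 0.778 in B6-ob/ob, and its downstream start (244 nt, chr8:94386495-94386738) 0.0680 and 0.222. The ERSE-II printed above stands from 61 to 51 bases before the upstream start and from 118 to 108 before the downstream one. The last polyadenylation site of Herpud1, 19 nt beyond the one before it, took 0.305 and 0.186, and the mean end was 34.9 nt further downstream in NZO.

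Derl2 fell just short of the limit. Its distal end, after 2491 nt, took 0.144 in NZO against 0.242 in B6-ob/ob (difference -0.0978) and its proximal end, after 414 nt, 0.856 and 0.758 (0.0977). The mean end of Derl2 lay 244 nt further upstream in NZO. Derl1 used its 2 ends alike, the proximal one at 0.480 and 0.489. The 9 events of Edem2 were within 0.000177.

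Exons of these genes were included almost completely. Of the 336 cassette exons, 323 (96.1%) had a PSI over 0.95 in both strains, against 76.5% of the exons of all genes. A further 6 had one under 0.05 in both strains, and 7 had other values. The exon with the most even use was a 165 nt coding exon of Os9 (chr10:127096915-127097079), a multiple of 3, present in the transcript Os9-202 and included at 0.255 in NZO against 0.240 in B6-ob/ob. Edem3 offers a 57 nt coding stretch at an alternative 5′ splice site (chr1:151805947-151806003), used at 0.834 and 0.770, and a 15 nt exon (chr1:151812754-151812768), included at 0.00777 and 0.0451. These 3 coding pieces, chosen after their values were seen, keep the reading frame and are printed as the sequences by which transcripts of the same ERAD gene differ in these islets.
Os9, exon of 165 nt (- strand): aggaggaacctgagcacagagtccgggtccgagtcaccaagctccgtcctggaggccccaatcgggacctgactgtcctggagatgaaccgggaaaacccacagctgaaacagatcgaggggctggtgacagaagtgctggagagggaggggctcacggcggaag
Edem3, stretch of 57 nt (+ strand): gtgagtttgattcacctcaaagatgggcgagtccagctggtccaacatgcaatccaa
Edem3, exon of 15 nt (+ strand): cagccatattaaaag

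Introns of these genes were retained at low levels. The median PSI of the 31 introns was 0.0119 in NZO against 0.0151 in B6-ob/ob. Over the 5445 introns of all genes it was 0.0841 and 0.0688. Among the abundant genes compared above, the median was 0.00448 in NZO and 0.00403 in B6-ob/ob for 25 introns of the list. For the 533 introns of all such abundant genes it was lower than over all genes, at 0.0222 and 0.0181. The PSI was higher in NZO for 17 of the 31 (54.8%), against 64.7% of all introns. Of the 11 introns with a mean PSI over 0.02, 9 were higher in NZO (81.8%, against 65.1% over all genes), and several lie in the ERAD genes Syvn1 and Derl3. The 9 include a 518 nt stretch of P4hb that nearly all transcripts hold and that differed by 2e-05. A 411 nt intron of Derl3 (chr10:75894628-75895038) had 0.111 in NZO against 0.0403 in B6-ob/ob. In Syvn1, introns of 255, 517 and 68 nt had 0.0660, 0.0782 and 0.0485 in NZO and 0.0284, 0.0469 and 0.0180 in B6-ob/ob. A 300 nt stretch of Xbp1 (chr11:5524385-5524684), coding in Xbp1-203, had 0.0561 and 0.0211, and an 82 nt intron of Hspa5 0.0917 and 0.0758. None of these differences reached 0.1.

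**Figure D5:**
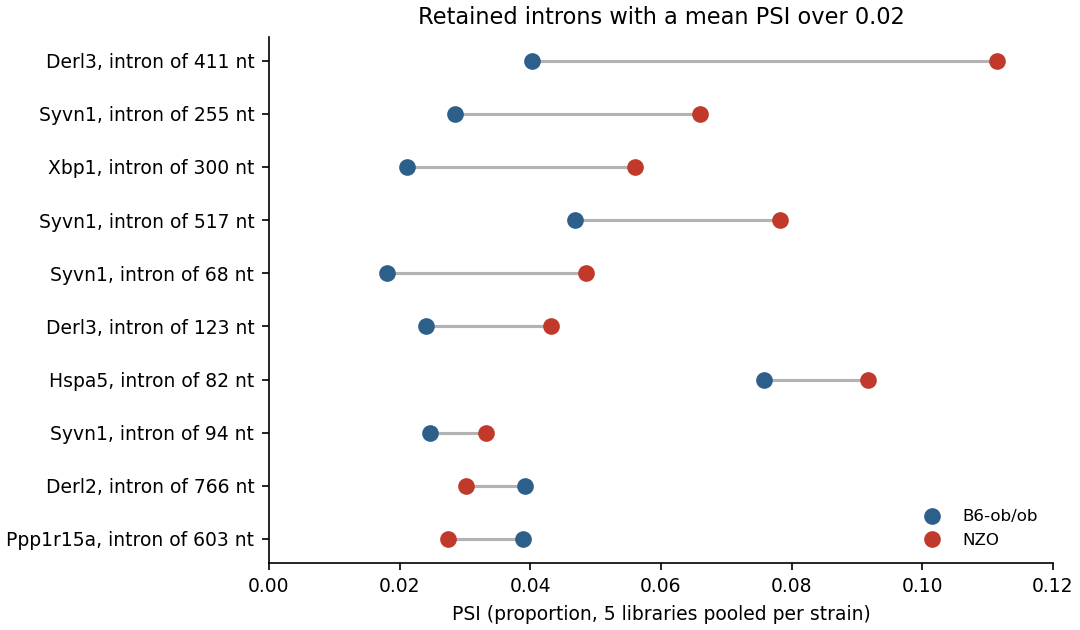
PSI (horizontal axis, a proportion) of the retained introns with a mean PSI over 0.02 in B6-ob/ob and NZO islets, each point being 5 libraries pooled, except a 518 nt stretch of P4hb present in nearly all transcripts. The Derl3 intron of 411 nt has the longest line, from 0.0403 in B6-ob/ob to 0.111 in NZO, and the introns of Derl2 and Ppp1r15a are lower in NZO.

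Other genes of ER stress were read in the same way from a list of 50 symbols, of which 42 genes had a tested event. Of their 599 events, 29 in 11 genes passed the limit (4.84%, against 7.99% over all genes), 15 with the higher PSI in NZO and 14 with the lower, and 24 of them were starts or polyadenylation sites. With short stretches left out, the ERAD ubiquitin-conjugating enzyme Ube2j2 and Crebrf had the largest differences. Its site after 228 nt (chr4:155957484-155957711) took 0.483 in NZO against 0.0594 in B6-ob/ob, and its site after 403 nt (chr4:155957081-155957483) 0.512 and 0.131. What replaced them in B6-ob/ob was an end only 3 nt beyond the former, at 0.00267 in NZO against 0.809 in B6-ob/ob, named after its values were seen. Crebrf, a regulator of the unfolded protein response, used a 27 nt untranslated stretch at an alternative 3′ splice site (chr17:26736789-26736815) at 0.869 in NZO against 0.594 in B6-ob/ob.

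The reads of both strains had been placed on the C57BL/6J reference, to which B6-ob/ob is nearly identical and NZO is not. Whether bases that differ in NZO moved any PSI given here was not tested.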

How the data were processed

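Salmon, DESeq2 and mm10 are named in the submitters' processing notes and Whippet in the study's methods; versions are not given in the sources used here. The deposited gene table gives the mean signal of each gene (count normalized by DESeq2 size factors and averaged by the authors over all 10 libraries). The deposited splicing table gives PSI as a fraction per strain, with the 5 libraries pooled by the authors with Whippet. Its further columns (fold change, adjusted p, difference in PSI and probability) and the 2 sheets of significant rows hold the authors' own comparisons and were not used. The labels name the miRNeasy Mini kit and the methods the Micro kit. Depth per sample is unknown.

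PSI in NZO less PSI in B6-ob/ob was computed for each event, and an event is past the limit when this exceeds 0.1 in either direction in a gene that averaged 100 normalized counts or more. Levels were divided by the exon length of GENCODE M21 (GRCm38, the primary assembly of mm10), which also annotates the events. Start stretches, or polyadenylation stretches, with gaps of at most 50 nt between them formed a set, whose mean site was weighted by PSI. Promoters came from RefSeq (GRCm38.p6), with Ero1l and Ero1lb matched under their newer symbols, and coding sequences from GENCODE M21. All genes of the list are named with their level. The events named are the largest past the limit, at most 20 and at most 3 per gene, without starts under 50 nt and polyadenylation stretches under 200 nt. Fewer than 20 met this rule. The 3 events nearest to the limit on each side and, by the same rule, the 3 largest of the further ER stress genes are named too. All other events printed, neighbouring sites and shorter stretches included, were chosen after their values were seen. The rule for members uses no measured value, but members, lists and limits were chosen with earlier results of these data known. The scripts were tested on simulated data and ran on Python 3.11.15, numpy 2.4.6, pandas 2.3.3, matplotlib 3.10.9.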

Additional observations from a re-analysis of the deposited data

How the results depend on the processing

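No test, error or depth backs a PSI difference, and the mean count is pooled over both strains. No paired analysis was possible because the strains share no replicate numbers and the columns hold pooled values, and with pooled values leaving out a library was not run.

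At a limit of 0.2 in place of 0.1, 8 of the 25 events passed (1.60%, against 3.19% over all genes), 4 of them higher in NZO. With cassette exons, retained introns and alternative splice sites only, 1 passed, 0 of them higher in NZO, and the median absolute difference was 0.0002 (0.00573 over all genes). Without starts and polyadenylation sites of any kind, again 1 passed. Counted by gene, 11 of 39 genes (28.2%) had an event past the limit, against 45.2% of all genes. Counted by set, a choice made after seeing the data, the mean start or end lay later in NZO in 5 of 12. Of the further ER stress genes, 10 events passed at 0.2 (1.67%, against 3.19% over all genes) and 4 with the 4 types (0.879%, against 2.25%). The count stayed within 1.5 times of 25 with no minimum count (25), a minimum of 1000 (22), one of 5000 (18, also chosen after seeing the data) and for a mean PSI of 0.1 to 0.9 (23). Per kb of the longest transcript 26 genes were again in the top 10%, and 29 with no length; 9 of 40 levels were higher by over 1.5 times, at most 1.84 times.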
